A study of Mus musculus with 9 samples.

Results

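Interferon-stimulated genes were followed in whole B16 melanoma tissue, a transplantable mouse tumour, after treatment of the host mice with PC61 or with PBS. The list held 52 genes of the interferon pathway, from the receptor chains and Janus kinases through the STAT and IRF transcription factors to nucleic acid sensors, antiviral effectors and inhibitors. A member was kept if a probe named for it in the platform annotation had a detection p under 0.05 on 4 or more arrays. By this rule 42 of the 52 genes were measured, out of 10096 genes tested in all. The other 10 (Ifit1, Mx1, Oas1a, Oas3, Ifih1, Ifi44, Ifi204, Xaf1, Herc6 and Ifnar1) had no probe named here and were not analysed. The number of named genes that failed the detection rule was 0, so the naming alone set which members were measured. An unambiguous symbol was at hand for 14942 probes, against 17382 in the authors' deposited table and 45273 in the raw table. Lack of a named probe thus does not show that the array has no probe for a gene. Of the 42 members, 35 were detected on all 9 arrays.

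The samples were 4 tumours from PC61-treated mice and, as controls, 5 tumours from PBS-treated mice. PC61 is a rat antibody against CD25, used to deplete regulatory T cells. All mice were C57/Bl6 and 8 weeks old, and the tumours were taken at day 14 after inoculation. The labels number the samples within each group and do not say whether each came from a separate mouse, so p-values reflect only how far these samples vary, which may be technical. Il2ra, the gene of CD25, had no probe named here, which does not show that the array lacks a probe for it. Foxp3, which defines regulatory T cells, was at 8.73 ± 0.18 in PC61 (log2 intensity, SD, n = 4) and 9.05 ± 0.24 in PBS (SD, n = 5), a log2 fold change of -0.32 with a limma adjusted p of 0.203.

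Cells release type I interferons when sensors such as RIG-I meet foreign nucleic acid, and T cells and NK cells release interferon gamma. Each interferon binds a receptor pair that signals through Janus kinases. Type I interferon signalling brings STAT2 and IRF9 to the interferon-stimulated response element in the promoters of antiviral genes, whereas interferon gamma acts at gamma-activated sites. The products block viral RNA and protein synthesis, and in tumours the same genes are switched on in malignant, stromal and immune cells. The tissue here was lysed whole, so fewer cells of a type and less RNA per cell cannot be told apart.

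Rsad2, Eif2ak2, Cmpk2, Oasl1, Ifit2, Trim30a, Usp18, Samd9l, Dtx3l, Ddx58 and Trim25, which are antiviral effectors, an RNA sensor and regulators, were lower in PC61 tumours by 1.56-fold to 4.41-fold. In the limma fit of all 9 arrays 11 of the 42 members (26.2%) were called lower in PC61 at a Benjamini-Hochberg adjusted p under 0.05, beside 11.2% of all genes tested. The number called higher was 0, beside 15.4% of all genes, and at an unadjusted p under 0.05 the members were 19 lower and 0 higher. Called in either direction were thus 26.2% of the members and 26.5% of all genes, a like share, with all member calls on the lower side. The median log2 fold change of the members was -0.70, a 1.63-fold lower level, against -0.05 over all genes. Of the members 39 of 42 had a negative log2 fold change, compared with 53.1% of all genes. In 9 members (21.4%) every PC61 array lay below every PBS array, which held for 9.96% of all genes.

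PC61 replicate 4 stood apart. It gave the lowest value of all 9 arrays for 35 of the 42 members, and the 6 members that missed detection on a PC61 array missed it there. The mean of the members relative to the PBS mean (log2) was -0.49, -0.12, -0.57 and -1.70 on PC61 replicates 1 to 4, against 0.04, -0.01, -0.13, 0.08 and 0.02 on PBS replicates 1 to 5. PC61 replicate 2 thus lay inside the PBS range and the other 3 PC61 arrays below it. Without PC61 replicate 4 the count of members called lower was 8 of 42, beside 7.72% of all genes, and the count of members called higher was 0, beside 11.4% of all genes. In either direction 19.1% of all genes were called. At an unadjusted p under 0.05 the members were 14 lower and 0 higher, beside 17.9% of all genes lower. All 8 were among the 11 (Dtx3l, Trim30a and Trim25 lost the call), and the median of the members was -0.36, with that of all genes at -0.04. Leaving out an array cannot remove any of the 9 members without overlap between the groups. None was added, so their share stayed at 21.4%, beside 12.9% of all genes.

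The count also moved with other arrays. It was 6 without PC61 replicate 1, 21 without PC61 replicate 2 and 4 without PC61 replicate 3. It was 7, 6, 8, 4 and 2 without PBS replicates 1, 2, 3, 4 and 5. The number of all genes called lower also varied widely when single arrays were left out (range given at the end). A changed count is thus not by itself a trait of the members. Ddx58 and Eif2ak2 were called in each of these 9 fits. Usp18 and Cmpk2 lost the call without PC61 replicate 3 or PBS replicate 5, and Samd9l without PBS replicate 4 or 5. Oasl1 lost it without PC61 replicate 1 or 3 or PBS replicate 4 or 5, Rsad2 without any of these 4 or PBS replicate 2, and Ifit2 without PC61 replicate 3 or any PBS array. Dtx3l kept it without PC61 replicate 2 or 3 or PBS replicate 3, and Trim30a and Trim25 without PC61 replicate 2. Ifngr1 was the 1 member called higher, without PC61 replicate 2.

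**Figure D1:**
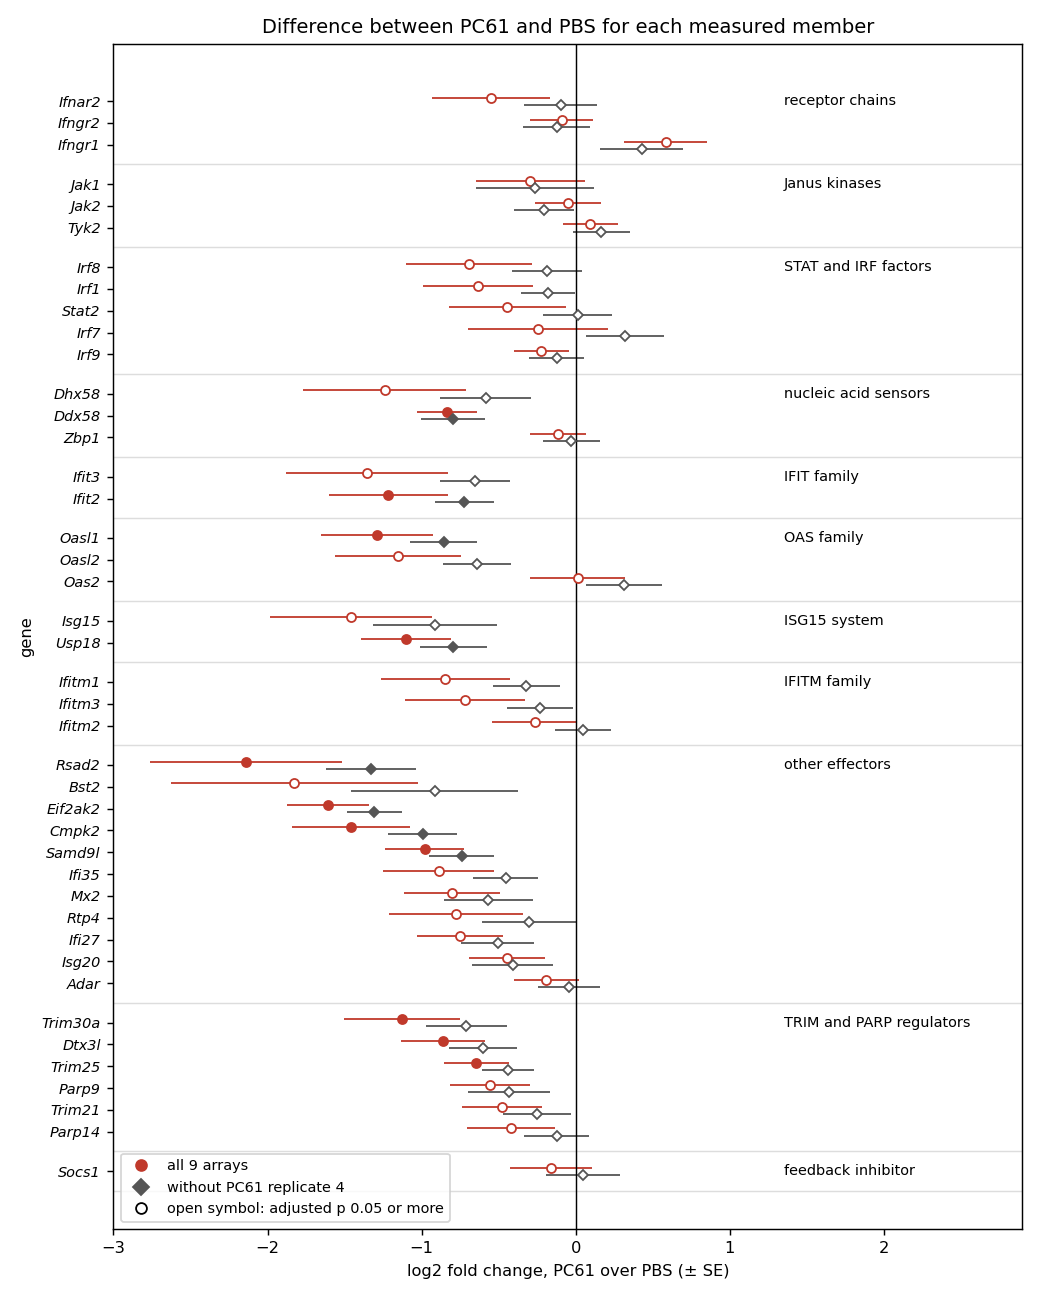
Log2 fold change of PC61 over PBS (horizontal axis, ± SE) for the 42 measured members, sorted by role (vertical axis), in the fit of all 9 arrays (circles) and without PC61 replicate 4 (diamonds); filled symbols have an adjusted p under 0.05. The 11 filled circles all lie left of 0, the receptors, kinases and transcription factors have open symbols, and 39 of the 42 circles shift to the right without that array.

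Of the 11 other effectors 4 were called lower: Rsad2, Eif2ak2, Cmpk2 and Samd9l. Eif2ak2 encodes PKR, the kinase that binds double-stranded RNA and stops translation by phosphorylating the initiation factor eIF2. Its log2 intensity was 9.05, 9.32, 9.01 and 7.93 on PC61 replicates 1 to 4, against 10.30, 10.63, 10.23, 10.57 and 10.44 on PBS replicates 1 to 5. Every PC61 array lay below every PBS array, and PC61 replicate 4 was the lowest. Eif2ak2 was 3.05-fold lower in PC61 (log2 fold change -1.61 ± 0.27, SE, adjusted p = 0.0122), and 2.47-fold lower without PC61 replicate 4 (adjusted p = 0.0174).

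Rsad2 encodes viperin, a radical SAM enzyme that makes a chain-terminating nucleotide. Its log2 intensity was 9.13, 10.45, 9.51 and 6.44 on the PC61 arrays and 10.84, 11.09, 10.59, 11.30 and 11.29 on the PBS arrays. PC61 replicate 2 came close to the lowest PBS array and PC61 replicate 4 was far below all others. Rsad2 was 4.41-fold lower in PC61 (-2.14 ± 0.62, SE, adjusted p = 0.0301), and 2.51-fold lower without PC61 replicate 4 (-1.33 ± 0.29, adjusted p = 0.0198). Cmpk2, a mitochondrial nucleotide kinase that supplies the substrate of viperin, is the next gene to Rsad2 on chromosome 12 in the RefSeq gene order. It was at 8.05, 7.95, 7.20 and 5.88 in PC61, against 8.89, 8.50, 8.67, 8.63 and 8.95 in PBS (log2 intensity). The groups did not overlap, and Cmpk2 was 2.75-fold lower in PC61 (-1.46 ± 0.38, adjusted p = 0.0222) and 1.99-fold lower without PC61 replicate 4 (adjusted p = 0.0209).

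Samd9l, an interferon-induced factor that restrains translation and cell growth, was at 9.71, 10.02, 10.28 and 9.04 in PC61 and at 10.55, 10.72, 10.45, 11.11 and 10.90 in PBS (log2 intensity). The highest PC61 array lay just below the lowest PBS array. The fold change was 1.97-fold lower in PC61 (-0.98 ± 0.26, adjusted p = 0.0222), and 1.67-fold lower without PC61 replicate 4 (adjusted p = 0.0359).

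The remaining 7 measured effectors of this class were not called. Bst2, the tetherin that holds budding virus at the cell surface, had the widest spread of them: 8.39, 9.55, 6.87 and 4.63 in PC61, against 9.10, 8.55, 8.50, 10.18 and 9.61 in PBS (log2 intensity). The groups overlapped, at -1.83 ± 0.80 (adjusted p = 0.109), and Bst2 missed detection on PC61 replicate 4. Ifi35 was at -0.89 (adjusted p = 0.0851), Mx2, a dynamin-like GTPase, at -0.80 (adjusted p = 0.0759), and Ifi27 at -0.75 (adjusted p = 0.0647). Rtp4 was at -0.78, Isg20, an RNA exonuclease, at -0.44 and the RNA-editing enzyme gene Adar at -0.19.

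In the IFIT family of antiviral proteins, Ifit2 was called and Ifit3 was not. Ifit2 was at 8.33, 8.33, 7.81 and 6.18 on the PC61 arrays and at 8.98, 8.64, 8.83, 9.02 and 8.93 on the PBS arrays (log2 intensity). The PBS arrays lay close together and all PC61 arrays below them. Ifit2 was 2.32-fold lower in PC61 (-1.22 ± 0.38, adjusted p = 0.0392), and 1.65-fold lower without PC61 replicate 4 (adjusted p = 0.0292). Ifit3, its neighbour on chromosome 19, was at -1.35 ± 0.53 (adjusted p = 0.0766). Its probes may not separate it from the near-identical Ifit3b.

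The OAS family was divided. Oasl1, an OAS-like protein that in mice restrains translation of Irf7 mRNA, was at 5.92, 6.72, 6.40 and 4.61 in PC61, against 7.33, 6.98, 7.15, 7.50 and 7.06 in PBS (log2 intensity). All PC61 arrays were lower than all PBS arrays, and Oasl1 missed detection on PC61 replicate 4. Oasl1 was 2.45-fold lower in PC61 (-1.29 ± 0.36, adjusted p = 0.0267), and 1.81-fold lower without that array (adjusted p = 0.0267). Its neighbour on chromosome 5, Oasl2, was at -1.15 ± 0.41 (adjusted p = 0.0578). Oas2, which makes the oligoadenylate that activates RNase L, was at 0.01 ± 0.31 (adjusted p = 0.978), with PC61 replicates 1 and 2 (7.82 and 8.16) above all PBS arrays (7.21 to 7.68) and replicates 3 and 4 (7.09 and 6.50) below them.

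ISG15 is a ubiquitin-like protein that is attached to other proteins after interferon, and USP18 removes it and also blocks the type I receptor. Usp18 was at 8.88, 9.43, 8.47 and 7.71 in PC61 and at 9.81, 9.68, 9.66, 9.59 and 9.87 in PBS (log2 intensity). The groups did not overlap, with PC61 replicate 2 nearest to PBS. Usp18 was 2.14-fold lower in PC61 (-1.10 ± 0.29, adjusted p = 0.0229), and 1.73-fold lower without PC61 replicate 4 (adjusted p = 0.0329). Isg15 itself was at 7.25, 7.94, 5.90 and 4.85 in PC61, against 7.78, 7.56, 8.68, 7.86 and 7.84 in PBS (log2 intensity). PC61 replicate 2 lay inside the PBS range, and the difference of -1.46 ± 0.53 was not called (adjusted p = 0.0604).

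The IFITM proteins, which hinder fusion of enveloped viruses, had 0 of 3 members called by limma (0 at an unadjusted p under 0.05). Ifitm1, Ifitm3 and Ifitm2 were at -0.85, -0.72 and -0.26, and at -0.32, -0.23 and 0.05 without PC61 replicate 4.

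**Figure D2:**
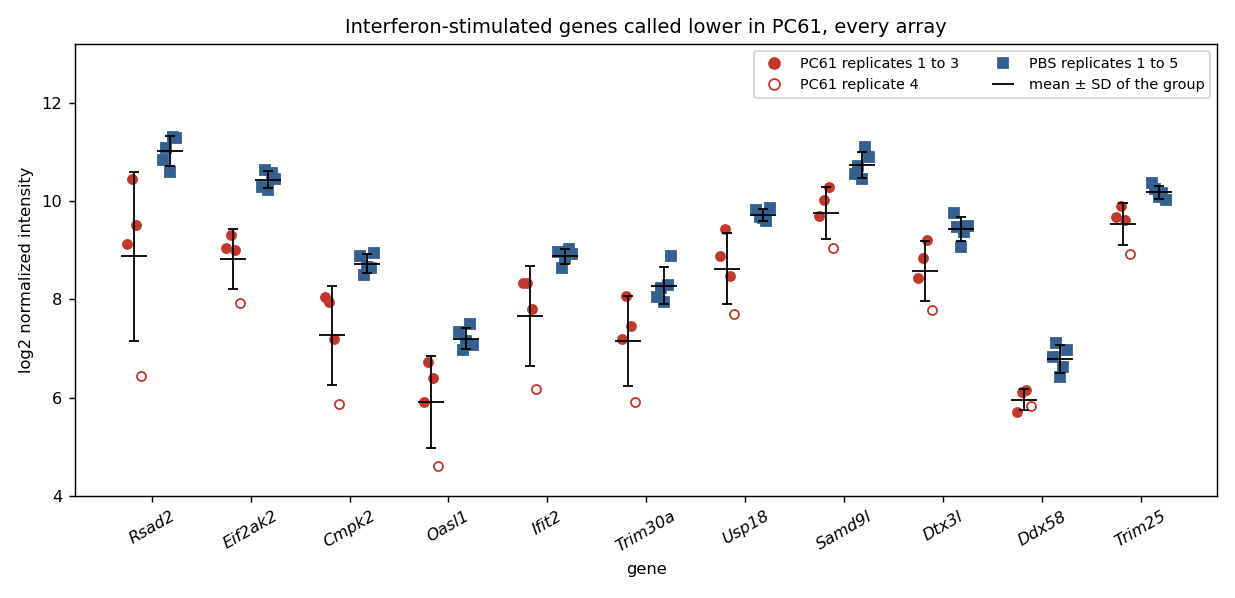
Log2 normalized intensity (vertical axis) of the 11 members called lower in PC61 on each of the 9 arrays, with PC61 arrays (circles, PC61 replicate 4 open) left of PBS arrays (squares) and the mean ± SD of each group in black. In 9 of the 11 genes every PC61 array lies below every PBS array; Dtx3l and Trim30a overlap, and PC61 replicate 4 is lowest in 10 of the 11.

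Of the sensors, which detect foreign RNA or DNA in the cytoplasm, Ddx58 was called. It encodes RIG-I, the sensor of RNA with a 5′ triphosphate. Ddx58 was at 5.71, 6.12, 6.15 and 5.84 on the PC61 arrays, against 6.83, 7.12, 6.41, 6.62 and 6.96 on the PBS arrays (log2 intensity). PC61 replicate 4 lay within the other PC61 arrays, and all 4 were below PBS. Ddx58 was 1.78-fold lower in PC61 (-0.84 ± 0.20, adjusted p = 0.0168), and 1.74-fold lower without PC61 replicate 4 (adjusted p = 0.0287). Dhx58, the RIG-I relative LGP2, was at -1.24 ± 0.53 (adjusted p = 0.101) and Zbp1, a sensor of Z-form nucleic acid, at -0.12 ± 0.18.

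The TRIM, DTX and PARP proteins regulate these pathways by ubiquitin or ADP-ribose transfer. Of 6 measured, 3 were called lower in the limma fit of all arrays and 0 without PC61 replicate 4, where the same 3 had an unadjusted p under 0.05. Trim30a, a mouse TRIM protein that dampens Toll-like receptor signalling, was at 7.19, 8.07, 7.45 and 5.90 in PC61, against 8.04, 8.23, 7.94, 8.29 and 8.89 in PBS (log2 intensity). PC61 replicate 2 overlapped the PBS arrays, and the log2 fold change was -1.13 ± 0.38 (adjusted p = 0.0471, and 0.0754 without PC61 replicate 4). Dtx3l, a ubiquitin ligase that acts with PARP9, was at 8.44, 8.85, 9.20 and 7.78 in PC61 and at 9.75, 9.47, 9.06, 9.37 and 9.497 in PBS (log2 intensity).

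PC61 replicate 3 overlapped PBS in Dtx3l, at -0.86 ± 0.27 (adjusted p = 0.04, and 0.0751 without PC61 replicate 4). Its neighbours on chromosome 16, Parp9 and Parp14, were at -0.56 and -0.42 and were not called. Trim25, the ubiquitin ligase known for its part in RIG-I activation, was at 9.68, 9.91, 9.61 and 8.92 in PC61, against 10.37, 10.24, 10.09, 10.18 and 10.02 in PBS (log2 intensity). The groups did not overlap, at a log2 fold change of -0.64 ± 0.21 (adjusted p = 0.045, and 0.0847 without PC61 replicate 4). Trim21, an intracellular antibody receptor, was at -0.48.

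Upstream of the effectors, 0 of 5 transcription factors, 0 of 3 kinases and 0 of 3 receptor chains were called in either limma fit (0 at an unadjusted p under 0.05 in both), although Irf1 was called with its probes averaged (-1.11, adjusted p = 0.0275). Irf7, which amplifies type I interferon production, was at 7.63, 8.03, 6.90 and 5.27 in PC61, against 6.95, 7.45, 7.39, 7.22 and 7.003 in PBS (log2 intensity). PC61 replicates 1 and 2 were above all PBS arrays and replicates 3 and 4 below them, as for Oas2. The mean of all members ranked the PC61 arrays in the same order. The log2 fold change of Irf7 was -0.24 ± 0.46 over all arrays and 0.32 ± 0.25 without PC61 replicate 4.

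Irf9 was at 8.65, 8.63, 8.44 and 8.18 in PC61 and at 8.79, 8.76, 8.61, 8.41 and 8.92 in PBS, and Stat2 was at 7.88, 8.08, 7.86 and 6.11 in PC61, against 8.42, 8.17, 7.81, 7.50 and 7.73 in PBS (log2 intensity). For Stat2 PC61 replicates 1 to 3 lay inside the PBS range. The log2 fold changes were -0.22 ± 0.18 for Irf9 and -0.44 ± 0.38 for Stat2, and without PC61 replicate 4 they were -0.12 ± 0.18 and 0.01 ± 0.22. Irf8, a factor of myeloid cells, was at -0.69 ± 0.41, and Irf1, which interferon gamma induces, at -0.63 ± 0.35.

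The type I receptor chain Ifnar2 was at 6.51, 6.80, 6.18 and 4.68 in PC61, against 6.004, 6.55, 6.67, 6.93 and 6.82 in PBS (log2 intensity). It missed detection on PC61 replicate 4, and on the other PC61 arrays it lay inside the PBS range, at -0.55 ± 0.38 over all arrays and -0.10 ± 0.24 without that array. Ifngr1, the chain that binds interferon gamma, was at 8.06, 7.70, 8.69 and 8.78 in PC61 and at 7.98, 7.84, 7.47, 8.08 and 7.25 in PBS. PC61 replicates 3 and 4 exceeded all PBS arrays, and Ifngr1 had the highest log2 fold change of the members, 0.58 ± 0.27 (adjusted p = 0.124). Ifngr2, the signalling chain, was at 9.01, 9.37, 9.48 and 9.42 in PC61, against 9.14, 9.45, 9.10, 9.86 and 9.49 in PBS, with a difference of -0.09 ± 0.20. Jak1, Jak2 and Tyk2 were at -0.30, -0.05 and 0.10, and Socs1, a feedback inhibitor of the Janus kinases, at -0.16.

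Several genes gave different answers from different probes. The brightest probe stood for each gene above. Of the 66 detected probes of the members, tested singly, 16 (of 14 genes) were lower in PC61, beside 11.3% of all probes, and 1 was higher, beside 13.4%. Among the 18 members with several probes, the call differed between probes in 8 and the sign in 3. For Irf1 the brightest probe was not called, whereas the 2 dimmest of its 4 probes were at -1.53 ± 0.34 (adjusted p = 0.0138) and -1.46 ± 0.28 (adjusted p = 0.0116). On these dimmer probes all 4 PC61 arrays (5.93 to 7.62 and 6.18 to 7.36) lay below all PBS arrays (8.24 to 9.22 and 7.97 to 8.96).

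For Adar, 1 of 4 probes was lower at -1.18 ± 0.21 (adjusted p = 0.0116), with 5.37 to 5.80 in PC61 and 6.34 to 7.21 in PBS, while the brightest was at -0.19. The dimmer Ifit3 probe was lower at -1.38 ± 0.33 (adjusted p = 0.0173). Both Usp18 probes were called, at -1.10 and -0.91, whereas the second probes of Oasl1 (-0.14), Dtx3l (-0.21), Trim25 (-0.40) and Ifit2 (-1.24, adjusted p = 0.0659) were not. The dimmer Jak1 probe was higher in PC61 by 1.04 ± 0.30 (adjusted p = 0.0283), against -0.30 for the brighter one. By the authors' deposited table, 16 of the 66 member probes were lower in PC61 at a Benjamini-Hochberg value under 0.05 and 1 was higher, beside 10.9% and 12.7% of all its probes.

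**Figure D3:**
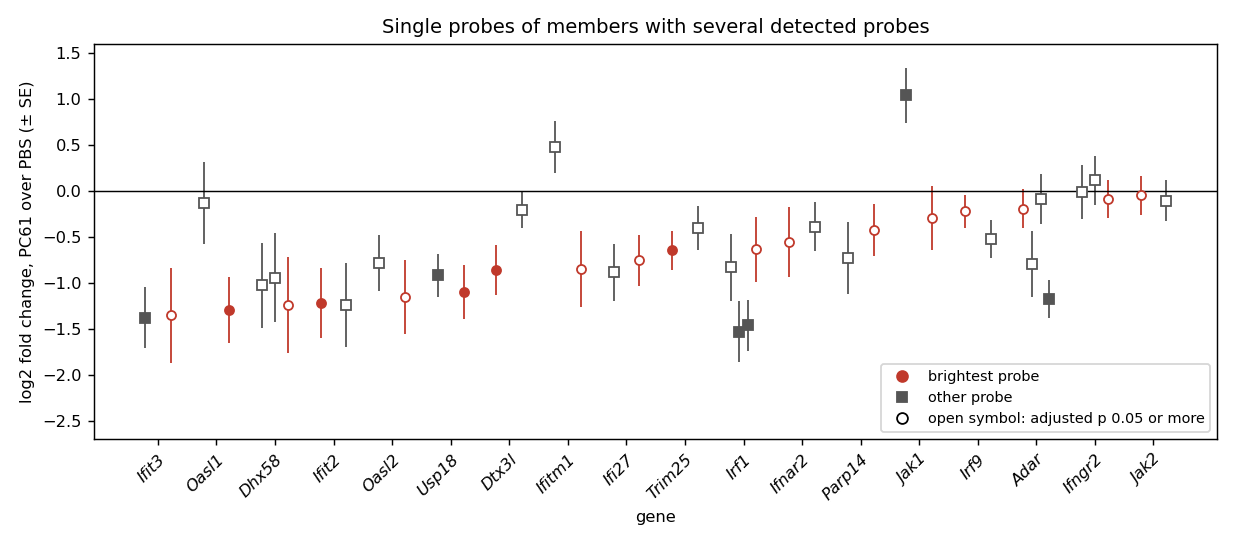
Log2 fold change of PC61 over PBS (vertical axis, ± SE, all 9 arrays) for each detected probe of the 18 members with several probes (horizontal axis); circles are the brightest probe and squares the others, filled where the adjusted p over all probes is under 0.05. Irf1, Adar and Ifit3 have filled squares beside an open circle, and the Jak1 probes lie on opposite sides of 0.

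Promoter windows, from 250 bases before to 50 bases after each annotated start, came from RefSeq (GRCm38.p6) and were found for 33 of the 42 members. The core of the interferon-stimulated response element, GAAA followed by any 2 bases and GAAA, was searched on both strands with overlapping matches allowed. It occurred in 12 of the 33 members (36.4%) and in 3.99% of all 27025 genes with a window. Of the members called lower 4 of 10 held the motif, and of those not called 8 of 23 (34.8%) did. The gamma-activated site TTCNNNGAA was in 10 of the 33 (30.3%), compared with 9.55% of all genes. A match is a description of the letters only. Windows of 3 called members and of Isg15, which was not called, are printed so that their motif positions can be compared, 5′ to 3′ on the strand of the gene, with the response element core or its reverse complement in capitals.
Eif2ak2, chr17:78882523-78882822, minus strand: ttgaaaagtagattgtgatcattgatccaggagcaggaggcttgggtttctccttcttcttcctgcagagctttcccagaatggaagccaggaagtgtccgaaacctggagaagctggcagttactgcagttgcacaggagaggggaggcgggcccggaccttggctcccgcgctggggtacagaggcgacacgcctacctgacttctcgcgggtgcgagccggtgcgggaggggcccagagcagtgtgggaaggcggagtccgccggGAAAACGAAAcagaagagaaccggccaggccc
Rsad2, chr12:26456403-26456702, minus strand: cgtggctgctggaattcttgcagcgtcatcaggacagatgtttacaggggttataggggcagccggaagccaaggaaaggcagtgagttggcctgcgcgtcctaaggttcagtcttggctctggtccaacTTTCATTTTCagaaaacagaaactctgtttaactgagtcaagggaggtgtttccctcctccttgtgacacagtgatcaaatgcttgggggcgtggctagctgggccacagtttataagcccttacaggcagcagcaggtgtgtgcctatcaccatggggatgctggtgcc
Ddx58, chr4:40239776-40240075, minus strand: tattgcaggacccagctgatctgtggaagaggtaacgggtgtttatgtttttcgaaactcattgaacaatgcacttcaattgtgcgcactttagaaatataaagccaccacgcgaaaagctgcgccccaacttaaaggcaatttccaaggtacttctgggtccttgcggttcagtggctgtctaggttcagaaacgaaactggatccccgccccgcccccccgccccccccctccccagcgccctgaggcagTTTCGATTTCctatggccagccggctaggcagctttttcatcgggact
Isg15, chr4:156200769-156201068, minus strand: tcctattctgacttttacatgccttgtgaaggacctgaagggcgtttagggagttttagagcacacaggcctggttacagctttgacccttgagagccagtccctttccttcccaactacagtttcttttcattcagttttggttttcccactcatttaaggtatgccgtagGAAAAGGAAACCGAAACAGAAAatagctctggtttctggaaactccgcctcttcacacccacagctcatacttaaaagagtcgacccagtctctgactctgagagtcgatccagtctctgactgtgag
Counting the first transcribed base as 1, the motif began at position 19 in Eif2ak2, at -120 in Rsad2 and at 3 in Ddx58. In Isg15 there were 3 overlapping matches, the first at -78 and the last at -66.

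Other genes of the pathway were read from the same fit. Of 33 measured among 58 further interferon-stimulated genes, 4 were lower in PC61 (12.1%) and 0 higher (12 and 1 at an unadjusted p under 0.05). The share called lower was near the 11.2% of all genes, and without PC61 replicate 4 it was 2 of 33 (6.06%), beside 7.72%. The median log2 fold change of the list was -0.57, and -0.33 without that array. The 4 were Ube2l6, the conjugating enzyme for ISG15 (-1.36 ± 0.34, adjusted p = 0.0197), Parp10, an ADP-ribosyltransferase (-1.01 ± 0.21), Trim34a (-0.76 ± 0.26) and Rnf213 (-0.75 ± 0.21).

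Of 15 measured among 22 genes of the interferon induction pathway, 2 were lower, 1 was higher and 12 were not called, with a median of 0.08. The list holds restrainers such as Nlrx1 as well as inducers. Called in either direction were 20% of the list, beside 26.5% of all genes. The share called lower was 13.3%, beside 11.2% of all genes, and 13.3% beside 7.72% without PC61 replicate 4. Trim56 and Rnf135, ubiquitin ligases that aid nucleic acid sensing, the second by acting on RIG-I, were at -0.97 ± 0.22 (adjusted p = 0.0151) and -0.90 ± 0.24 (adjusted p = 0.023), and at -0.84 and -0.69 without PC61 replicate 4. Nlrx1, a mitochondrial protein reported to restrain this signalling, rose by 0.83 ± 0.23 (adjusted p = 0.0266), and was at 0.69 (adjusted p = 0.0544) without that array.

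Of the interferon genes themselves 3 of 21 were measured, and none was called: Ifna6 was at -0.20 ± 0.25, Ifnab at -0.09 ± 0.23 and Ifng at 0.05 ± 0.34 (adjusted p from 0.572 to 0.917). At an unadjusted p under 0.05 limma gave 0 of them as well. Ifng was detected on 3 of 4 PC61 and 2 of 5 PBS arrays, and the Ifna6 and Ifnab probes belong to a multigene family whose members a probe may not separate. All 15 inhibitors of interferon signalling were measured. Of these 1 was called higher and 1 lower, a share of 13.3% in either direction, beside 26.5% of all genes. Cish, a SOCS family protein induced by cytokines, rose by 1.54 ± 0.27 (adjusted p = 0.0122), and Ptpn2, a phosphatase of Janus kinases and STAT proteins, fell by 0.95 (SE 0.26, adjusted p = 0.0252), while Pias3 was at 0.48 ± 0.18 (adjusted p = 0.0632).

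Marker lists of other cells were read on the same arrays. Of 13 measured melanocyte and melanoma genes of 16 listed, 4 were called lower in PC61 (30.8%, beside 11.2% of all genes). The others were not called, but at an unadjusted p under 0.05 limma gave 12 lower and 0 higher. Without PC61 replicate 4, 7 were called lower (53.8%, beside 7.72% of all genes). The list median was -1.86, and -1.04 without that array. The summed linear intensity of the list was 4377 to 82115 in PC61 and 72485 to 109913 in PBS, ranges that overlap. The list mean relative to PBS (log2) was -1.05, -0.32, -1.62 and -4.51 on PC61 replicates 1 to 4. The PC61 arrays had the same order by this mean as by the members' mean, and the reverse order by the keratinocyte (1.79, 0.80, 1.84 and 2.76) and skeletal muscle (1.70, 1.19, 2.38 and 2.75) means. Tyr, tyrosinase, missed detection on PC61 replicate 4 (4.596), with a difference of -1.99 ± 0.47 (adjusted p = 0.0168).

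In the keratinocyte list 8 of 10 measured genes of 13 were higher, with sums of 58713 to 147129 in PC61 and 16497 to 61996 in PBS, with Krt5 at 2.40 ± 0.56, and in the skeletal muscle list 13 of 13 of 14 listed, with 41564 to 106655 in PC61 and 10344 to 24010 in PBS and Ckm at 2.49 ± 0.34. Of 10 measured fibroblast genes of 11, 6 were higher, with sums of 21875 to 46027 in PC61 and 8497 to 21807 in PBS. Without PC61 replicate 4 the counts called higher were 3 for keratinocyte, 12 for skeletal muscle and 5 for fibroblast genes. Of all genes 15.4% were called higher, and 11.4% without that array. In the endothelium list 1 of 8 measured genes was lower and 1 higher over all arrays, and 0 were called without PC61 replicate 4.

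Of 8 pan leukocyte genes 0 were called by limma in the fit of all arrays (0 at an unadjusted p under 0.05), with sums of 4631 to 13395 in PC61 and 6657 to 9720 in PBS, and the lowest value was on PC61 replicate 4 (the next PC61 array was at 10367). Of 7 pan T cell and 11 macrophage genes 0 were called as well (0 at an unadjusted p under 0.05). The sums were 505 to 1719 in PC61 and 706 to 1354 in PBS for the T cell list. They were 8468 to 22659 in PC61 and 11631 to 14840 in PBS for the macrophage list. Without PC61 replicate 4, 1 pan leukocyte, 1 pan T cell and 1 macrophage gene were called higher and 0 lower. The medians of these lists were then 0.43, 0.51 and 0.47, against 0.02, 0.20 and 0.30 over all arrays. The plasmacytoid dendritic cell is the lineage known for large amounts of type I interferon. In its list 1 of 7 measured genes was lower and 2 higher over all arrays (0 and 1 without PC61 replicate 4). The sums were 5045 to 7754 in PC61 and 4387 to 4568 in PBS. The genes called over all arrays, named after their values were seen, were Lair1 (-0.60), Ly6d (1.81) and Cox6a2 (2.04). Keratinocytes also express Ly6d, and skeletal muscle also expresses Cox6a2. That list shares Bst2 with the members. Its defining marker Siglech was at 6.01 ± 0.60 in PC61 (log2 intensity, SD, n = 4) and 6.03 ± 0.21 in PBS (SD, n = 5). The part of these cell types in the differences of the members was not tested.

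**Figure D4:**
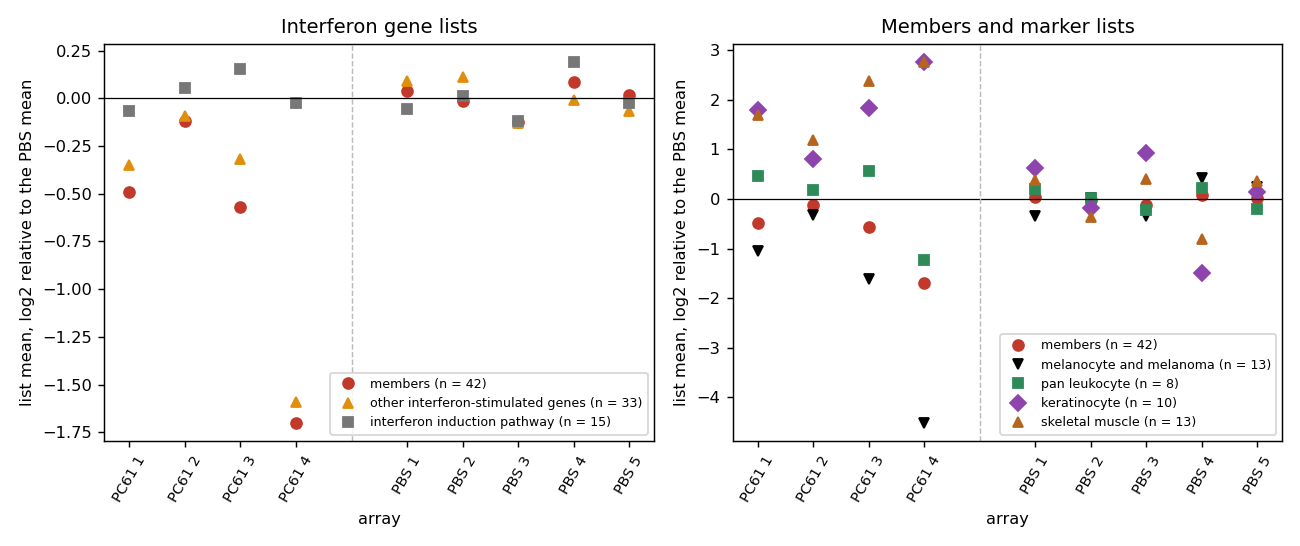
Mean over the genes of a list of the log2 intensity relative to the PBS mean (vertical axes) on each array (horizontal axes, PC61 left of PBS), for the members and other interferon lists (left panel) and for the members and marker lists (right panel). The members and the further interferon-stimulated genes are lowest on PC61 replicate 4 (-1.70 and -1.59), where the melanocyte and melanoma list is lowest as well (-4.51), while the interferon induction list stays between -0.12 and 0.19 on all arrays.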

How the data were processed

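RNA of 9 tumours was labelled as biotinylated cRNA and hybridised to single-colour Illumina arrays, per the labels' protocols. The deposited raw table gave a linear intensity and a detection p-value for 45273 probes, per the file headers. A second table held the authors' quantile-normalized intensities of 17382 probes with their ratio of PC61 to PBS, a test statistic (a score) and p-values, per the file headers; the sources used here give neither the test nor the software. The deposited value table held the same intensities (largest difference 0).

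Analysis began from the raw table, without 3 probes whose detection p lay outside 0 to 1. Values were corrected by normexp on the detection p-values with an offset of 16, quantile normalized and put on a log2 scale with neqc of limma 3.58.1 (R 4.3.3). Quantile normalization hides a shift of most genes in 1 direction, and the offset shrinks the fold changes of dim probes. Probes with a detection p under 0.05 on 4 or more arrays were kept (20190), of which 14906 had 1 symbol. Symbols of the listed genes came from the platform annotation, so a listed gene without a named probe counts as not measured. Those of other genes were updated to RefSeq symbols where the gene identifier matched. The probe with the highest mean stood for a gene. Arrays detected 18572 to 20742 probes; their number limits the precision.

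Groups were compared with lmFit and eBayes, two-sided, with Benjamini-Hochberg adjustment over 10096 genes and a threshold of 0.05. The fit without PC61 replicate 4 kept the normalization and filter of all arrays. Fold changes are PC61 over PBS. The alternatives were another offset, 2 other scalings, no background correction, the authors' values, 2 other detection filters, array weights, averaged probes, a replicate block and leaving out each array. The procedure was tested on simulated data, with independent normal noise and the same SD on all arrays for a gene. The simulation held no outlying array, so it does not speak to calls that depend on PC61 replicate 4. The members and lists were chosen with earlier results of these data known. All detected members could be named, with values on each array for called members, Irf7, Irf9, Stat2 and the receptor chains. Bst2, Isg15 and Oas2 were given array values after these were seen, as were the single probes. From each pathway list the called genes and up to 3 with the smallest p were named, and from marker lists Siglech, Tyr, Krt5 and Ckm.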

Additional observations from a re-analysis of the deposited data

Results flagged for a closer look

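A sample far from the others of its group was found in 7 of the 84 groups of values examined (42 members in 2 groups), by the gap to the nearest sample divided by the range of the group; chance gives about 1 in 20. PC61 replicate 4 was the low sample for Irf1 (0.96), Stat2 (0.888) and Zbp1 (0.866). In PBS, replicate 1 was high for Irf1 (0.825) and Parp14 (0.87) and low for Adar (0.782), and replicate 3 was high for Isg15 (0.737).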

How the results depend on the processing

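Of the 11 members called lower, Eif2ak2, Rsad2, Cmpk2, Ddx58, Usp18, Samd9l and Ifit2 were called under each alternative other than the replicate block and single arrays left out. Trim25, Dtx3l and Trim30a lost the call with cyclic loess, and Oasl1, Trim25 and Dtx3l with averaged probes, where Irf1 (-1.11) and Ifit3 (-1.36) gained it (10 lower). The direction of the 11 did not reverse under any alternative run. The number of members called lower was 8 with cyclic loess, 12 with 75th percentile scaling and 18 with array weights, which gave PC61 replicate 1 a weight of 5.42 and PC61 replicate 4 a weight of 0.194. With every probe tested singly, a setting chosen after seeing the data, 16 probes were lower and 1 was higher. With array weights 2225 of all genes were lower, and with detection on all arrays 978 were higher. With 75th percentile scaling the median of all genes was at -0.10 and that of the members at -0.74; with cyclic loess they were at 0.06 and -0.53, and 858 of all genes were lower and 1831 higher, against 1127 and 1552. Leaving out single arrays gave 2 to 21 members lower, 0 to 1 higher, a median of the members from -0.85 to -0.36, and 226 to 1768 of all genes lower and 527 to 1986 higher. The labels number the replicates alike in both groups and do not say whether same-numbered samples were paired. Same-numbered samples did not deviate together (correlations from -0.33 to 0.01). So few pairs cannot show whether they shared handling, so the pairing stays unknown. With the replicate block 0 members and 0 of all genes were called by limma in either direction (at an unadjusted p under 0.05, 16 members and 1371 genes lower, 0 members and 1678 genes higher), and the median of the members was -0.71. The block leaves fewer degrees of freedom; the cause of the other changes was not tested. Oasl1, Bst2, Ifnar2, Rtp4, Parp9 and Socs1 were not above background on PC61 replicate 4, so background limits their fold changes there.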
